A study of Mus musculus with 4 samples.

Results

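The endothelin genes described here are 5 in number, *Edn1*, *Edn3*, *Ece1*, *Ednra* and *Ednrb*, out of 53703 features in the count matrices. They were taken from the matrices by symbol. Single-cell transcriptomes of long-bone metaphysis (femur and tibia) were taken at 12 weeks of age from mice on a C57BL/6 background, with 2 libraries from Lats2iECKO mutants and 2 from controls. Lats2iECKO mice carry loxP-flanked *Lats2* together with the tamoxifen-inducible Cdh5(PAC)-CreERT2 transgene, which is driven in endothelial cells (ECs). According to the study's methods, controls are littermates without Cre that received the same tamoxifen, whereas the labels give the controls' treatment as untreated. Both sexes were used, and the sources used here do not say how many mice went into a library. Suspensions had been depleted of lineage-positive, CD45+ and CD117+ cells, so that stromal and endothelial cells were enriched. The study's text calls the libraries of a genotype biological replicates, the labels do not say whether they come from separate mice, and p-values of genotype tests within a class measure the spread between these libraries. Those of comparisons between classes or subtypes measure the spread left after differences between libraries are taken out.

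Endothelins are short vasoactive peptides. *Edn1* and *Edn3* encode precursors that furin-type proteases trim to big endothelins, and the membrane metalloprotease encoded by *Ece1* releases the active peptide. The receptor encoded by *Ednra* sits mainly on smooth muscle cells and pericytes, where it couples to Gq, raises calcium and causes contraction. The receptor encoded by *Ednrb* is best known on ECs, where it triggers nitric oxide release and clears endothelin from the circulation, and it also serves neural crest derivatives, for which *Edn3* is the usual ligand. LATS2 is a kinase that restrains the co-activators YAP and TAZ, which act through TEAD transcription factors.

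On GRCm39, *Edn1* (ENSMUSG00000021367) is at chr13:42446301-42461466 on the plus strand, *Edn3* (ENSMUSG00000027524) at chr2:174602088-174625835 on the plus strand and *Ece1* (ENSMUSG00000057530) at chr4:137589530-137692542 on the plus strand. *Ednra* (ENSMUSG00000031616) is at chr8:78386590-78451552 and *Ednrb* (ENSMUSG00000022122) at chr14:104052053-104081900, both on the minus strand. The promoters of the ligand gene and of both receptor genes are shown because the levels of these 3 genes carry the results below. Each is the RefSeq sequence of the 250 bases before the transcript start on GRCm38.p6, written 5′ to 3′ on the gene's strand at chr13:42301226-42301475 (plus) for *Edn1*, chr8:77724453-77724702 (minus) for *Ednra* and chr14:103843702-103843951 (minus) for *Ednrb*. Capitals mark a TEAD motif.
Edn1: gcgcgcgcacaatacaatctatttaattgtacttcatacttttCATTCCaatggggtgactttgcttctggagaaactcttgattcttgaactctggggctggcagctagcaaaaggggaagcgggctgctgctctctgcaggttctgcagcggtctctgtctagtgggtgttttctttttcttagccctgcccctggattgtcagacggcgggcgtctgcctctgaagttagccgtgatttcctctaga
Ednra: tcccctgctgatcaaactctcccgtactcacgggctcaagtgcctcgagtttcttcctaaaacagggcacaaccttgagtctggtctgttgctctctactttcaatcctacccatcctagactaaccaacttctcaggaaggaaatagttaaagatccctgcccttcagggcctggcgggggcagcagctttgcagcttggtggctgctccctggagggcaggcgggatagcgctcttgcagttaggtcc
Ednrb: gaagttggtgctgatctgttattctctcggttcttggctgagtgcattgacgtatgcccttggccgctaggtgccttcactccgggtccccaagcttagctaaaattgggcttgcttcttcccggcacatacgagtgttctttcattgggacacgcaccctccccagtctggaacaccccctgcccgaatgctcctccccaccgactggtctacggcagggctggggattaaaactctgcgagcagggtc

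All 5 genes matched the promoter table, *Ece1* with 4 start sites and the others with 1 each. Both strands were searched for 4 motifs, the SRF CArG box by its name. The letters CATTCC stood for TEAD binding. Those for AP-1 were TGANTCA, with N any base. For GATA factors they were TGATAA. The only match among these windows was the CATTCC of *Edn1*, 207 to 202 bases before its start. Among 32851 promoters of the same length, 12.6% held the TEAD letters, 6.75% the AP-1, 7.94% the GATA and 1.47% the SRF motif. A match describes these letters only, and with the start sites of another annotation (GENCODE M39) the *Edn1* window held none of the 4 motifs, the *Ednra* window held a GATA match 28 to 23 bases before its start and the *Edn3* window an AP-1 match 8 to 2 bases before its start.

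The libraries held 69636600 to 85899079 unique molecular identifiers (UMIs), and 5159 to 6890 barcodes per library (24829 in all) passed the filters of at least 1000 UMIs and 800 genes and of mitochondrial, hemoglobin and complexity limits. Cells were assigned by marker gates, which gave 2912 ECs and 1517 mural cells. The gates gave no type to 34.0 and 34.2% of mutant and 13.4 and 14.6% of control barcodes, and the part of this difference in the results was not tested. Pairs of libraries shared 7 to 16 barcodes. In ECs, *Lats2* was at 92.4 and 96.7 CPM (the gene's share of all UMIs of a class in a library, scaled as usual) in the mutants and 133 and 124 CPM in the controls (log2 fold change −0.36 ± 0.0750 SE, adjusted p = 0.00596), and Cre-ERT2 was at 54.0 and 48.6 against 0.660 and 0.848 CPM, so no library stood against its label. By subtype, *Lats2* was called lower only in aECs (−0.46 ± 0.131, adjusted p = 0.0271), and stood at −0.33 in mpECs, −0.22 in alECs, −0.12 in tipECs and 0.03 in bmECs (adjusted p = 0.313 to 0.958). Names of EC subtypes follow the study for arterial (aEC), arteriole-like (alEC), metaphyseal (mpEC) and bone marrow (bmEC) cells, whereas the tip-like gate (tipEC), set by *Apln*, *Kcne3*, *Trp53i11*, *Pcdh17* and *Nid2*, is an addition and no class of the study. *Nox4* led the genes of the tipEC gate, and *Thbs1* and *Angpt2* were among them. The study lists *Nox4* as an mpEC marker specific to mutants and reports *Thbs1*, *Angpt2* and *Edn1* as raised in mutant mpECs. It also reports apelin, encoded by the gate's marker *Apln*, as raised there, so the gate is set in part by a gene that moves with genotype. How far its mpECs and this tipEC gate overlap was not tested. *Spp1* and *Col10a1*, made by osteogenic cells and chondrocytes, led the genes of the mpEC gate beside its own marker *Ramp3*, and *Spp1* was among the leading genes of the pericyte gate. The smooth muscle gene *Tagln*, which the study also lists as a marker of its arteriole-like cells, was among those of the alEC gate. Free RNA, estimated from empty droplets and hemoglobin, made up a median of 1.64% of a class's UMIs per library (1.00% to 14.6%, the highest in tipECs of control replicate 1).

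*Edn1* was an endothelial transcript. Levels are given in CPM of counts summed per class and library, singly or as mean ± SD of 2 libraries. In the controls it stood at 52.2 ± 11.9 CPM in ECs, and at means from 0.154 CPM in osteoblasts (OB) to 2.23 CPM in fibroblasts among the mural, mesenchymal stromal (dpMSC and mpMSC), osteoblast, chondrocyte (CHO) and fibroblast gates. It was at 0 in the glia of both control libraries, where 3 counts would be 53.5 and 65.7 CPM. ECs exceeded fibroblasts by 4.37 ± 0.516 SE on the log2 scale (edgeR quasi-likelihood test, adjusted p = 3.68e-08, with 39.8% of 20983 genes called in that contrast). That difference was 3.17 without control replicate 1 and 11.2 without control replicate 2, because the fibroblasts of control replicate 1 held 0 counts.

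Among control EC subtypes, *Edn1* was highest in alECs (177 ± 63.3 CPM) and aECs (151 ± 21.2 CPM), which could not be separated (adjusted p = 0.391, 14.1% of 13608 genes called). Control tipECs followed at 18.3 ± 0.709 CPM, below aECs by 3.16 ± 0.335 on the log2 scale (adjusted p = 3.05e-07, 12.5% of genes called). Control mpECs held 7.09 ± 3.05 CPM and did not differ from tipECs beyond their spread (adjusted p = 0.324, 2.58% called). Lowest were bmECs with 0.325 CPM on 1 control count, with a fitted difference from mpECs of −3.91 ± 0.786 on the log2 scale (adjusted p = 9.48e-04, 13.7% called). Because it rests on that 1 count, it is not read as a test. The difference was −2.63 without control replicate 1, where the call was lost (adjusted p = 0.192), and −6.07 without control replicate 2.

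In mutant ECs, *Edn1* rose 4.59-fold. The mutant libraries held 229 and 222 CPM and the control libraries 60.6 and 43.8 CPM, so the genotypes did not overlap. The log2 fold change was 2.20 ± 0.126 SE (adjusted p = 7.23e-06). Of the 5 endothelin genes, 4 had the 40 counts needed for a test in ECs and *Edn1* alone was called, against 34.5% of all 14277 genes tested in ECs (17.8% higher and 16.7% lower in the mutants). A level summed over a class cannot tell apart more *Edn1*-positive cells from more RNA per cell, so both were read. With every cell thinned to 3000 UMIs, *Edn1* was detected in 32.1% (95% exact binomial interval 27.9 to 36.6%) and 31.7% of mutant ECs and in 10.9% (8.65 to 13.5%) and 8.05% of control ECs. The thinned shares left out 180 of the mutant and 339 of the control ECs, and without thinning they were 43.7% ± 0.468 against 14.9% ± 1.98. ECs with an *Edn1* UMI held a mean of 4.93 and 4.89 such UMIs in the mutants and 2.66 and 2.30 in the controls. In dpMSCs, which should lack the gene, the thinned share was 0.258 and 0.637% in the mutants and 0 and 0.136% in the controls, at median depths of 5610 to 6114 UMIs per library.

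The rise was not equal across EC subtypes. In tipECs, gated by genes such as *Apln*, which marks the tips of sprouting vessels, the mutant libraries held 369 and 306 CPM and the control libraries 18.8 and 17.8 CPM. This is a 19.0-fold difference (log2 fold change 4.25 ± 0.287, adjusted p = 3.93e-06), the only one of 3 endothelin genes tested that was called there, where 11.8% of 8523 genes were. The control value rests on 38 and 34 cells, of which 3 and 3 held an *Edn1* UMI. These control libraries held 266407 and 281399 UMIs in tipECs, so their *Edn1* counts are few. The gene had the counts for a test through the mutant libraries, and the call is read with that limit. The dpMSC markers, which include *Esm1*, itself among the leading genes of tipECs, summed to 1604 to 2217 CPM in mutant and 706 to 949 CPM in control tipECs, and their part in the result was not tested. In mpECs, *Edn1* was at 56.9 and 72.2 CPM against 9.24 and 4.93 CPM (9.35-fold, log2 fold change 3.23 ± 0.351, adjusted p = 0.00326). It was again the only call among 3 genes tested, with 6.11% of 9117 genes called. The control counts of mpECs were also few, and this call is read with the limit given for tipECs. In aECs *Edn1* was at 381 and 364 CPM against 166 and 136 CPM, a smaller 2.62-fold rise with no overlap (log2 fold change 1.39 ± 0.120, adjusted p = 9.57e-07). Of 3 endothelin genes tested in aECs 2 were higher, where 14.8% of 9631 genes were called. The dpMSC markers summed to 1803 to 2035 CPM in mutant and 2865 to 2979 CPM in control aECs, and their part was not tested.

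In alECs the genotypes overlapped: the mutant libraries held 192 and 172 CPM and the control libraries 222 and 132 CPM. The log2 fold change was 0.05 ± 0.209 (adjusted p = 0.931), and none of 3 endothelin genes tested was called in alECs, where 2.01% of 8507 genes were. In bmECs, the sinusoidal cells of the marrow, *Edn1* had 12 and 26 counts in the mutant libraries (32.4 and 51.2 CPM) and 0 and 1 count in the control libraries (0 and 0.649 CPM), below the 40 counts needed for a test. The ratio of the summed levels was 129, with an exact counting interval of 21.8 to 5232. The 38 mutant counts came from 9 bmECs, 2 in replicate 1 and 7 in replicate 2, and free RNA was estimated to give 0.397 and 0.606 CPM there. The dpMSC markers stood at 1238 to 1350 CPM in mutant and 673 to 842 CPM in control bmECs, and their part was not tested. Only *Ece1* could be tested in bmECs and it was not called, against 4.66% of 9205 genes.

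**Figure D1:**
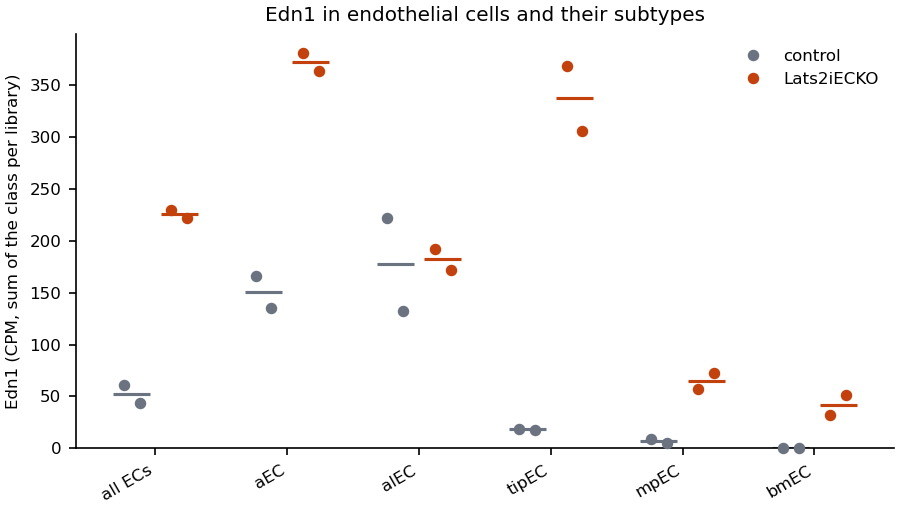
*Edn1* level in CPM (vertical axis, linear from 0) in all ECs and in each EC subtype (horizontal axis). Each point is 1 library, grey for control and orange for Lats2iECKO, and each bar is the mean of 2 libraries. The mutant libraries lie above the control libraries everywhere except in alECs, where 192 and 172 CPM lie between 222 and 132 CPM.

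The differences between subtypes were tested directly, as the log2 fold change in 1 subtype minus the mean of the other 4. That mean holds the bmEC value, which rests on 1 control count, so the test was run again without bmECs, a choice made after seeing the data. For alECs and aECs the mean then still holds tipECs and mpECs, whose control *Edn1* counts were few. Their differences are read with that limit. The effect in alECs was lower than in the others by 3.76 on the log2 scale (difference −3.76 ± 0.280, adjusted p = 6.91e-08, with 0.742% of 13608 genes called), and leaving out 1 library gave −4.45 (without control replicate 2) to −3.34 (without control replicate 1), called each time. Without bmECs it was −2.87 ± 0.226 (adjusted p = 1.41e-06, 1.00% of 12877 genes called), again called with any 1 library left out. The effect in aECs was also lower (−2.19 ± 0.278, adjusted p = 1.22e-04, 0.764% called). Without bmECs the aEC difference was −1.17 ± 0.218 (adjusted p = 0.0108, 0.792% called), and that call was lost with any 1 of the 4 libraries left out (adjusted p = 0.0689 to 0.152).

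The tipEC effect is read with the limit of few control counts given above. It depended on whether bmECs were included. With them it was 1.55 ± 0.674 above the others and missed the threshold (adjusted p = 0.292, 2.73% called). Without them it was 2.75 ± 0.348 above the others (adjusted p = 1.18e-04, 2.70% called), ranging from 2.36 to 2.99 and called with any 1 library left out. The effect in mpECs was not called with bmECs (0.09, 0.0588% called, −0.56 to 0.69 with 1 library left out). It was not called without them either (1.30 ± 0.346, adjusted p = 0.252, 0.0699% called). For bmECs themselves the fitted difference was 4.29 (0.103% of genes called), which is not read as a test because *Edn1* had 38 mutant counts and 1 control count there. *Ece1* was not called in any subtype in either comparison. *Ednrb* was called in none with bmECs (tipECs −0.87 ± 0.425, adjusted p = 0.363, but −1.92 and 0.0487 with classes by whole profile). Without bmECs it was called in tipECs (−1.56 ± 0.350, adjusted p = 0.0186), a call lost without Lats2iECKO replicate 1 (0.0919), control replicate 1 (0.309) or control replicate 2 (0.0994).

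Subtype makeup moved with genotype. The tipEC gate held 15.8 and 19.0% of mutant ECs and 4.48 and 4.09% of control ECs. The alEC gate held 22.9 and 23.3% against 9.08 and 9.87%, the mpEC gate 9.09 and 8.93% against 19.0 and 19.0%, and the bmEC gate 7.09 and 7.91% against 21.6 and 23.0%. Whether the tipEC and mpEC gates hold the same kind of cell in both genotypes was not tested. The median depth of ECs was 6546 UMIs in the mutants and 5376 in the controls, and that of tipECs 8463 and 5037.5. The part of makeup and depth in the summed EC value was not tested.

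Outside the endothelium *Edn1* had the counts for a test only in chondrocytes, and there only with Lats2iECKO replicate 2, so its call is not read as a test. It was at 0.397 and 1.92 CPM in mutant CHO and 0.342 and 0.111 CPM in control CHO (log2 fold change 2.41 ± 0.728, adjusted p = 0.0167), so mutant replicate 1 lay close to control replicate 1. It was 1 call among 3 endothelin genes tested, where 41.5% of 16952 genes were called. Free RNA was estimated to give 0.288 and 0.440 CPM in the mutants and 0.120 and 0.0639 CPM in the controls. The value was 1.82 without control replicate 2, 3.37 without control replicate 1 and 3.13 without Lats2iECKO replicate 1, called each time. Without the filter on low counts the call was lost (adjusted p = 0.215), and without Lats2iECKO replicate 2, or with free RNA subtracted, the gene had too few counts for a test. In empty droplets themselves *Edn1* stood at 28.8 and 37.6 CPM in the mutant and 6.86 and 4.40 CPM in the control libraries.

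*Edn3*, the ligand that favours EDNRB, was barely detected. All 4 libraries held 0 counts in ECs, where 3 counts would be 0.460 to 0.576 CPM. Mural cells held 4 and 3 counts in the mutants (1.18 and 0.784 CPM) and 13 and 2 counts in the controls (7.44 and 1.15 CPM), so the lower control library fell between the mutant libraries. The ratio of the summed levels was 0.225, with an exact counting interval of 0.0775 to 0.585 that covers counting error only. Of the 13 counts in control replicate 1, 6 were in barcodes of no mural subtype. No class reached the 40 counts needed for a test, and dpMSCs, mpMSCs, OB, fibroblasts and glia held 0.

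*Ece1*, the converting enzyme, was detected in every class and was highest in ECs. Control ECs held 328 ± 0.774 CPM, above fibroblasts at 97.9 ± 21.3 CPM (log2 difference 1.62 ± 0.0975, adjusted p = 2.82e-14). Fibroblasts and dpMSCs (91.7 ± 5.36 CPM) could not be separated (adjusted p = 0.0792, 36.9% of genes called), nor could dpMSCs and mural cells (75.3 ± 2.82 CPM, adjusted p = 0.142, 37.3% called). Mural cells lay above mpMSCs (53.0 ± 7.43 CPM, adjusted p = 0.00109, 32.8% called), a call lost without control replicate 2 (adjusted p = 0.0630). Then came OB at 13.2 ± 0.865 CPM (below mpMSCs, adjusted p = 4.80e-09, 41.2% called) and CHO at 7.01 ± 0.410 CPM (below OB, adjusted p = 1.27e-10, 53.7% called). Control glia held 65.7 and 35.6 CPM on 3 and 2 counts.

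Within control ECs, *Ece1* was higher in aECs (504 ± 14.2 CPM) and alECs (495 ± 24.1 CPM) than in the rest. These 2 could not be separated (adjusted p = 0.896), and alECs exceeded tipECs (271 ± 41.5 CPM) by 1.07 ± 0.142 on the log2 scale (adjusted p = 8.21e-06, 12.4% of genes called). Neighbours further down, mpECs (255 ± 2.34 CPM) against tipECs and bmECs (231 ± 2.10 CPM) against mpECs, did not differ beyond their spread (adjusted p = 0.989 and 0.686). *Ece1* and *Edn1* thus had their highest control levels in the same EC subtypes, aECs and alECs.

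*Ece1* was not called between genotypes in ECs. Mutant ECs held 337 and 331 CPM and control ECs 328 and 327 CPM (log2 fold change 0.11 ± 0.0615, adjusted p = 0.185), and no EC subtype was called, with fitted log2 fold changes from −0.15 ± 0.0934 in aECs to 0.14 ± 0.173 in tipECs. In mural cells it rose 1.41-fold, from 77.3 and 73.3 CPM to 97.0 and 109 CPM (log2 fold change 0.50 ± 0.116, adjusted p = 0.00377), a call that DESeq2 did not make (adjusted p = 0.0754). Neither mural subtype was called: contractile cells held 44.6 and 52.1 against 48.6 and 55.6 CPM (log2 fold change −0.06 ± 0.199) and pericytes 129 and 139 against 140 and 118 CPM (0.15 ± 0.169). Pericytes held more *Ece1* than contractile cells in the controls (129 against 52.1 CPM, contractile minus pericyte −1.12 on the log2 scale, adjusted p = 6.18e-04, with 22.0% of 11335 genes called, or 0.0547 without control replicate 1), and they were 44.2 and 45.0% of mutant and 25.2 and 22.9% of control mural cells. The part of this makeup in the mural value was not tested.

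In dpMSCs, the diaphyseal stromal cells marked by *Lepr* and *Adipoq*, *Ece1* fell from 87.9 and 95.5 to 70.0 and 77.2 CPM (log2 fold change −0.28 ± 0.0832, adjusted p = 0.0250). In OB it rose from 12.6 and 13.8 to 21.6 and 21.6 CPM (0.67 ± 0.164, adjusted p = 0.0299), where 6.01% of 12540 genes were called and *Ece1* was the only endothelin gene tested. Both calls were lost with DESeq2 (adjusted p = 0.254 and 0.318). The dpMSC call was also lost without Lats2iECKO replicate 1 (adjusted p = 0.131) or control replicate 2 (0.156), and the OB call without any 1 of the 4 libraries (0.108 to 0.261) or with classes by whole profile (0.0567). Fibroblasts held 46.8 and 62.0 CPM in the mutants and 82.8 and 113 CPM in the controls, without overlap, but the log2 fold change of −0.74 ± 0.207 missed the threshold (adjusted p = 0.185), as did *Ednra*, with 0.325% of 9834 genes called. With classes by whole profile *Ece1* was called in fibroblasts (−0.86, adjusted p = 0.00489) and in mpMSCs (0.53, adjusted p = 4.33e-04, against 0.13 by the gate).

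*Ednra*, the contractile receptor, was a mural and stromal transcript. Control mural cells held 397 ± 2.22 CPM and dpMSCs 176 ± 0.826 CPM, a log2 difference of 1.25 ± 0.0835 (adjusted p = 2.81e-13). Next were mpMSCs at 39.3 ± 8.25 CPM, below dpMSCs (adjusted p = 4.92e-16, 33.3% of genes called), and fibroblasts at 24.8 ± 2.49 CPM, which could not be separated from mpMSCs (adjusted p = 0.0926, 29.2% called). Control CHO, ECs and OB held means of 3.87, 3.26 and 1.32 CPM. Among mural cells, control pericytes held 607 ± 45.8 CPM and control contractile cells, which express *Myh11* and *Cnn1*, 316 ± 18.1 CPM (contractile minus pericyte −0.75 ± 0.116 on the log2 scale, adjusted p = 1.71e-04).

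*Ednra* fell in the mutants in each of these mural classes and in dpMSCs. Mutant mural cells held 177 and 193 CPM against 398 and 395 CPM, a log2 fold change of −1.05 ± 0.0853 (adjusted p = 1.21e-07), so that control libraries held 2.08-fold more. Of 3 endothelin genes tested in mural cells all 3 were called, 2 higher and 1 lower, where 29.9% of 11903 genes were called (15.7% higher and 14.2% lower). *Ednrb*, 1 of the 2 higher, had few control counts, as given below. In pericytes the mutants held 180 and 186 CPM and the controls 575 and 640 CPM (log2 fold change −1.62 ± 0.127, adjusted p = 2.21e-06), the only call among 3 genes tested, with 18.8% of 9417 genes called. In contractile cells the values were 209 and 199 against 329 and 303 CPM (−0.59 ± 0.108, adjusted p = 0.00406, or 0.0576 without the filter on low counts), where 6.14% of 9057 genes were called. The order of the subtypes seen in the controls, with pericytes above contractile cells, was no longer present in the mutant libraries, where 180 and 186 CPM lay below 209 and 199 CPM.

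The fall was larger in the pericyte gate than in the contractile gate. The difference between the log2 fold changes was −1.01 ± 0.167 (adjusted p = 0.00157, with 5.76% of 11335 genes called), and it ranged from −1.13 to −0.90 and was called with any 1 library left out. After thinning, *Ednra* was detected in 37.3% (95% exact interval 32.7 to 42.2%) and 40.2% of mutant mural cells and in 64.1% (58.0 to 69.9%) and 57.6% of control mural cells, and without thinning in 63.5% ± 1.76 against 77.9% ± 2.11. Positive cells held a mean of 2.15 and 2.32 UMIs in the mutants and 3.07 and 3.11 in the controls.

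The list of 10 mural markers was read beside it, as a sum only. Its summed level was 15031 to 15332 CPM in mutant and 27141 to 29588 CPM in control mural cells, 11020 to 11232 against 23360 to 25902 CPM in pericytes, and 27605 to 28873 against 29465 to 31583 CPM in contractile cells. The dpMSC markers stood at 2878 to 3497 against 2093 to 2837 CPM in pericytes and at 714 to 1031 against 1157 to 1666 CPM in contractile cells. The pericyte gate held 199 and 222 mutant and 72 and 66 control cells, and *Spp1* was among its leading genes. The study reports that smooth muscle cells without *Myh11* are enriched in mutants. It finds fibrosis markers raised in them and regards them as likely myofibroblasts. How far the pericyte gate overlaps with those cells was not tested. Whether this gate holds the same kind of cell in both genotypes, and the part of these values in the *Ednra* result, was not tested.

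In dpMSCs *Ednra* fell from 177 and 176 to 110 and 112 CPM (log2 fold change −0.64 ± 0.0669, adjusted p = 3.35e-06). Of 2 endothelin genes tested in dpMSCs both were lower, against 19.1% of 14621 genes called in either direction. The dpMSC marker list was at 38677 to 39143 CPM in mutant and 39101 to 39316 CPM in control dpMSCs, and mural markers were at 409 to 420 against 435 to 451 CPM. In mpMSCs the libraries overlapped, at 20.2 and 34.3 against 45.1 and 33.5 CPM (−0.41 ± 0.218, adjusted p = 0.236), and neither of 2 genes tested was called, against 16.5% of 12452 genes. Leaving out 1 library moved the *Ednra* value from −0.87 (without Lats2iECKO replicate 2, called with adjusted p = 0.0102) to −0.13 (without Lats2iECKO replicate 1). In ECs *Ednra* was at 2.11 and 5.22 against 3.05 and 3.47 CPM.

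**Figure D2:**
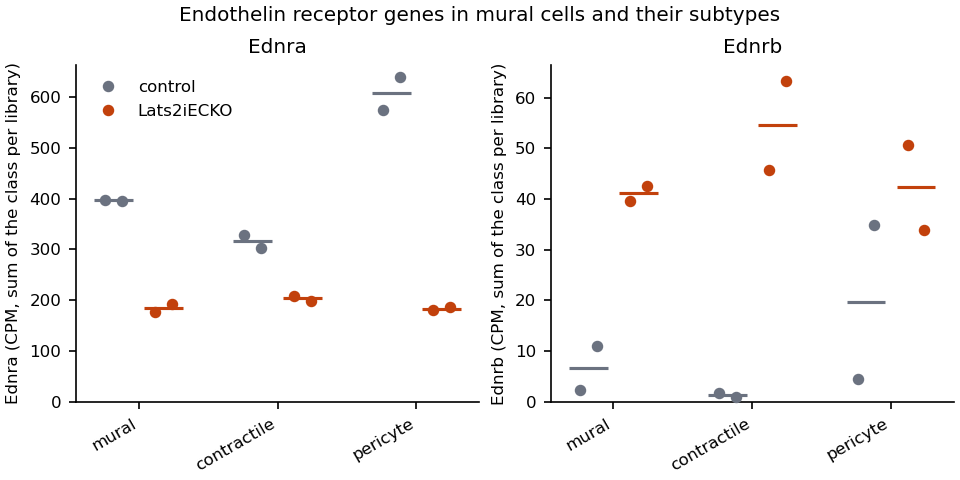
*Ednra* (left) and *Ednrb* (right) levels in CPM (vertical axes, linear from 0 and of different range) in all mural cells, contractile cells and pericytes. Each point is 1 library, grey for control and orange for Lats2iECKO, and each bar is the mean of 2 libraries. *Ednra* is lower in both mutant libraries throughout, and *Ednrb* is higher except in pericytes, where the control library at 34.8 CPM lies between the mutants.

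*Ednrb*, the endothelial receptor, was in controls mostly an EC transcript with a marked subtype pattern. Control ECs held 109 ± 14.8 CPM and control mural cells 2.29 and 11.0 CPM (log2 difference 3.99 ± 0.272, adjusted p = 3.31e-13, 40.9% of genes called, 3.12 without control replicate 1 and 5.61 without control replicate 2). Control tipECs held 268 ± 51.7 and mpECs 199 ± 21.2 CPM, which could not be separated (adjusted p = 0.552). Control aECs held 107 ± 2.89 CPM, below mpECs (adjusted p = 0.00421, 14.5% called), although this call was lost without control replicate 1 (adjusted p = 0.261) or 2 (0.0689). Control bmECs held 11.1 ± 2.86 CPM, far below aECs (log2 difference 3.27 ± 0.295, adjusted p = 6.62e-09, 25.2% called), and alECs 4.07 ± 2.76 CPM, not separable from bmECs (adjusted p = 0.281, 19.8% called, or 0.0438 with classes by whole profile). The subtypes with most *Edn1* and *Ednrb* thus differed in the controls: alECs had the highest *Edn1* mean and the lowest *Ednrb* mean.

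In mutant ECs *Ednrb* was at 115 and 126 CPM against 119 and 98.4 CPM in controls, with overlap (log2 fold change 0.23 ± 0.1001, adjusted p = 0.105), although it was called without Lats2iECKO replicate 1 (0.30, adjusted p = 0.0334) or control replicate 1 (0.37, 0.00522). In aECs it rose 1.45-fold, from 109 and 104 CPM to 147 and 144 CPM (0.54 ± 0.129, adjusted p = 0.00848). That call was lost with DESeq2 (adjusted p = 0.160), with a wider gate margin (0.0607) and without control replicate 1 (0.0869), while cells classed by their whole profile gave a log2 fold change of 0.86. Mutant tipECs held 97.5 and 206 CPM against 304 and 231 CPM in controls, without overlap but not called (−0.73 ± 0.294, adjusted p = 0.136). The tipEC value was −1.40 without Lats2iECKO replicate 2 (called, adjusted p = 1.68e-04), −0.89 without control replicate 2 (called, 0.0395) and −0.31 without Lats2iECKO replicate 1 (0.632). Mutant alECs held 15.8 and 16.4 CPM against 2.11 and 6.02 CPM, also not called (1.95 ± 0.571, adjusted p = 0.121). It was called in alECs with no filter on low counts (2.03, adjusted p = 0.0456) and with classes by whole profile (4.05, 0.00643), and ranged from 1.43 to 2.86 with a control library left out. On 473153 and 498457 control UMIs the control levels of alECs rest on very few counts. *Ednrb* passed the filter on counts through the mutant libraries there, and the alEC fits are not read as a test. In mpECs the mutants held 192 and 211 CPM and the controls 184 and 214 CPM, with overlap (0.11 ± 0.136, adjusted p = 0.701, or 0.79 and 0.0209 with classes by whole profile). In bmECs the mutants had 3 counts and the controls 33, a ratio of levels of 0.309 with an exact counting interval of 0.0606 to 0.985.

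In mural cells, which held little *Ednrb* in the controls, the gene rose. Mutant mural cells held 39.7 and 42.6 CPM and control mural cells 2.29 and 11.0 CPM, without overlap (log2 fold change 2.68 ± 0.316, adjusted p = 7.51e-06). The log2 fold change was 1.94 without control replicate 1 and 4.20 without control replicate 2. The controls held 4 and 19 *Ednrb* UMIs, 11 of the 19 in 1 cell, so the gene passed the filter on counts through the mutant libraries. The call is read with that limit. In contractile cells there were 41 and 68 counts in the mutants (45.7 and 63.2 CPM) and 2 and 1 counts in the controls (1.74 and 0.842 CPM). The ratio of the summed levels was 43.1, with an exact counting interval of 14.4 to 212 that covers counting error only. With 3 control counts, the gene passed the filter on counts through the mutant libraries, so its fitted fold change is not read as a test. Pericytes overlapped, at 50.7 and 33.8 CPM in the mutants and 4.39 and 34.8 CPM in the controls (1.30 ± 0.502, adjusted p = 0.0912). The pericyte value was called without control replicate 2 (3.32, adjusted p = 0.00762), without Lats2iECKO replicate 2 (1.58, 0.0183), with no filter on low counts (1.44, 0.00136) and with a replicate block (1.30, 0.0405), and was 0.37 without control replicate 1. The 13 counts behind the 34.8 CPM came from 3 pericytes of control replicate 2.

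The fitted pericyte effect minus the contractile one was −4.09 on the log2 scale and −1.64 without control replicate 2. Both rest on at most 3 control counts of contractile cells, and neither this difference nor that between the control levels of the mural subtypes is read as a test. After thinning, *Ednrb* was detected in 5.06% (95% exact interval 3.16 to 7.63%) and 10.0% (7.39 to 13.2%) of mutant and in 1.15% (0.237 to 3.31%) and 1.52% (0.414 to 3.83%) of control mural cells. In dpMSCs, which should lack the gene, it was detected in 0 and 0.425% of mutant and 0.0669 and 0.0680% of control cells. Without thinning the mural shares were 11.6% ± 2.85 and 1.57% ± 0.239, at median depths of 6943 and 5669.5 UMIs.

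Endothelial RNA in the mural gate was read beside this result. The 10 EC markers, none of them at 0, summed to 234 to 276 CPM in mutant and 238 to 278 CPM in control mural cells, and to 192 to 195 against 197 to 214 CPM in contractile cells, compared with 8022 to 8559 CPM in ECs. The glia markers summed to 7.06 to 9.40 against 9.81 to 11.4 CPM in mural cells. In the mutants 110 mural cells held 298 *Ednrb* UMIs, and 42 of them were contractile and 47 pericytes. Their EC markers summed to 392 CPM and their mural markers to 18347 CPM, against 234 and 14728 CPM in the 833 mutant mural cells without an *Ednrb* UMI. Glia markers summed to 16.3 CPM in the former and 6.97 CPM in the latter, and the part of these values was not tested. Free RNA was estimated to give 0.184 to 0.198 CPM of *Ednrb* in mutant and 0.152 to 0.159 CPM in control mural cells.

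Outside ECs and mural cells *Ednrb* was read in few counts. Glia, in which *Ednrb* is a known neural crest gene, held 21.1 and 29.97 CPM in the mutants and 197 and 53.5 CPM in the controls, on 2, 4, 9 and 3 counts. Fibroblasts held 0.731 and 0.747 against 5.47 and 2.97 CPM, and dpMSCs, mpMSCs, OB and CHO held less than 1 CPM in every library. None of these had the counts for a test.

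**Figure D3:**
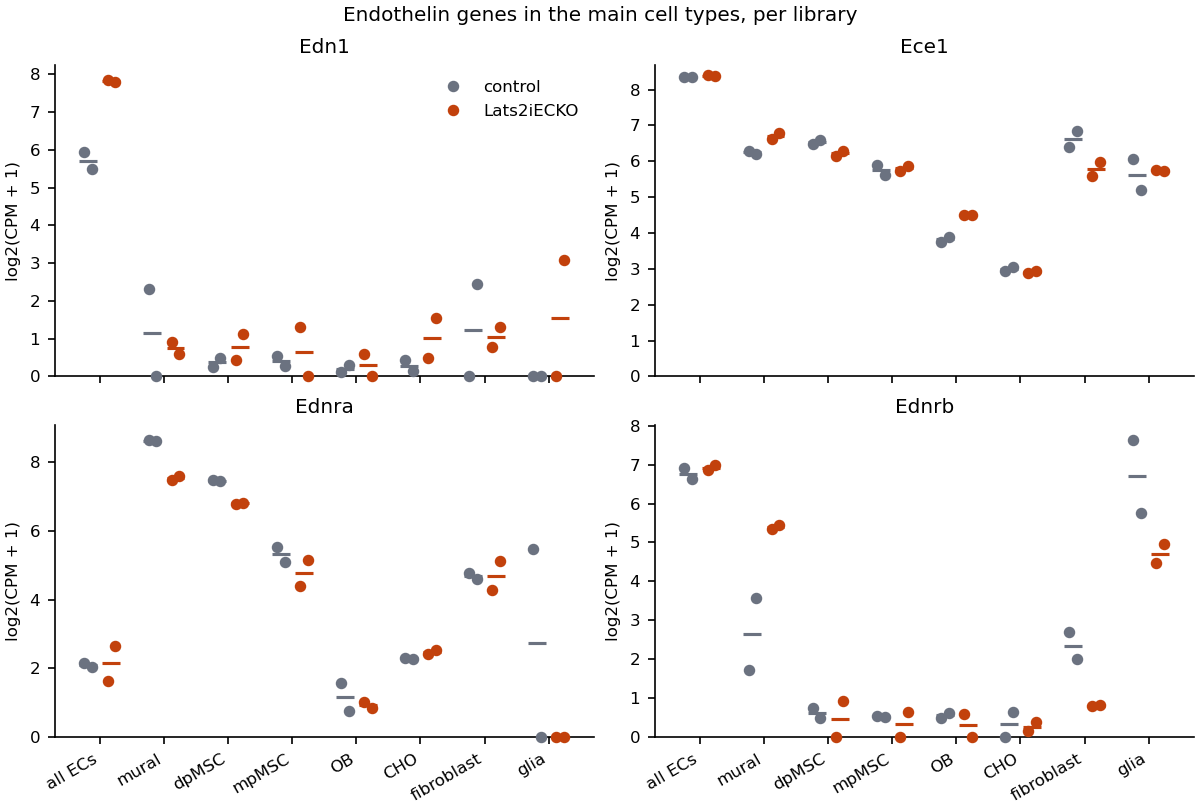
Levels of *Edn1*, *Ece1*, *Ednra* and *Ednrb* as log2(CPM + 1) (vertical axes) in 8 cell types (horizontal axis). Each point is 1 library, grey for control and orange for Lats2iECKO, and bars are means of 2 libraries. *Edn1* stands out in ECs, *Ece1* in ECs above a broad lower level, *Ednra* in mural cells and dpMSCs, and *Ednrb* in ECs and glia and in mutant mural cells.

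**Figure D4:**
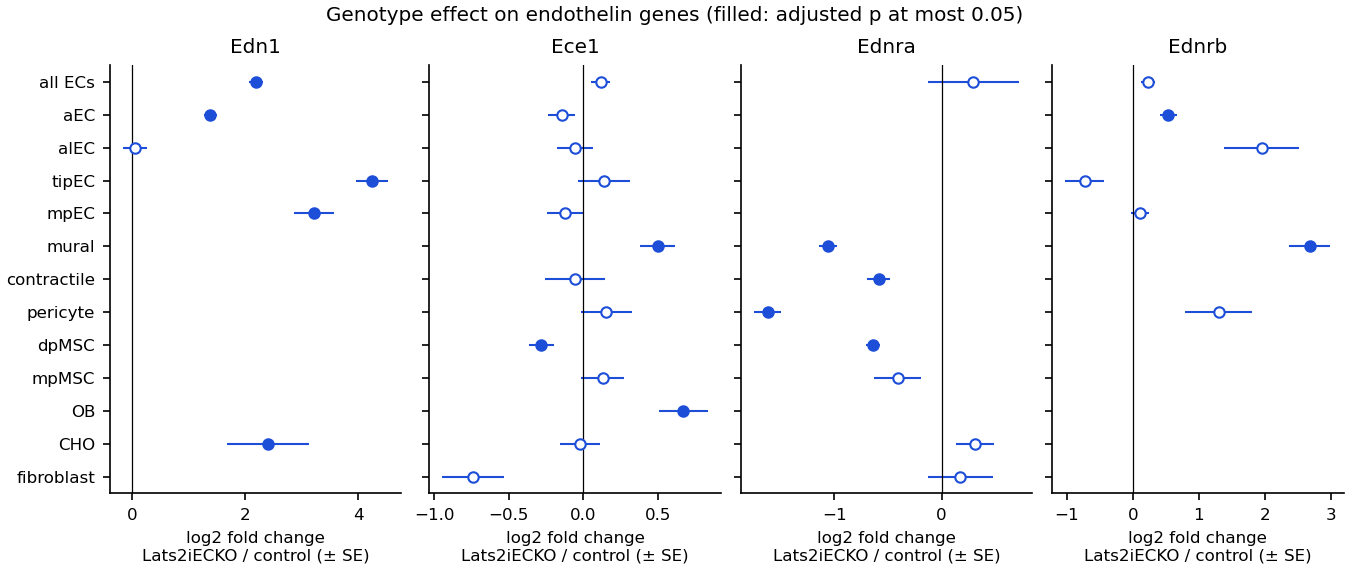
Fitted log2 fold change of Lats2iECKO over control (horizontal axes, of different range) with its SE, for each class (rows) in which *Edn1*, *Ece1*, *Ednra* or *Ednrb* had at least 40 counts. Filled points have an adjusted p of at most 0.05, and *Ednrb* in contractile cells is left out because its control libraries held 3 counts. The *Edn1* points of tipECs and mpECs and the *Ednrb* points of all mural cells and alECs rest on few control counts. The *Edn1* point of CHO (filled) and the *Ednrb* point of alECs (open) are not read as tests. The *Edn1* points of tipECs (4.25) and alECs (0.05) lie farthest apart among EC subtypes, and the *Ednra* points of mural cells, their subtypes and dpMSCs all lie below 0.

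The other genes of the pathway were read from a list of 44, chosen with earlier results of these data known. The list includes *Srf*, which the study reports from the same data as raised in mutant mpECs. Counts from this list are therefore a description, and no set was tested. In ECs 42 were tested, 12 higher and 12 lower (median log2 fold change 0.05, against 0.01 over all genes tested, of which 17.8% were higher and 16.7% lower). Of the 7 genes listed as regulators of *Edn1* transcription 6 were higher, where 17.8% of all genes were: *Fos* (1024 and 1029 against 481 and 501 CPM, log2 fold change 1.15 ± 0.0543, adjusted p = 3.65e-06), *Srf* (0.80), *Klf4* (0.72), *Klf2* (0.50), *Jun* (0.41) and *Hif1a* (0.29). The same list had 4 genes higher and 0 lower among 6 tested in aECs (14.8% of all genes called in either direction), bmECs (4.66%), mpECs (6.11%), mural cells (29.9%) and mpMSCs (16.5%), and among 7 tested in dpMSCs (19.1%), OB (6.01%) and CHO (41.5%). It had 1 higher among 6 in alECs (2.01% of all genes called), and 0 called by edgeR among 7 in tipECs, where 11.8% of all genes were (*Fos* and *Jun* at unadjusted p of 0.0314 and 0.0355, in opposite directions). *Fos* in empty droplets was at 2059 to 2062 CPM in mutant and 990 to 1021 CPM in control libraries, and its part was not tested.

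Of 6 genes that regulate the receptors, 4 were lower in ECs, where 16.7% of all genes were, among them *Grk3*, a receptor kinase (2.69 and 2.30 against 9.25 and 7.47 CPM, −1.66 ± 0.281, adjusted p = 0.00208), and *Rgs2*, which speeds up Gq inactivation (25.0 and 23.6 against 49.2 and 46.5 CPM, −0.89 ± 0.0967, adjusted p = 1.99e-04). Within subtypes 0 were lower among 3 tested in aECs (14.8% of all genes called in either direction) and 3 in alECs (2.01%). In mpECs 1 of 5 was lower (6.11%) and in bmECs 1 of 6 (4.66%). In tipECs 0 of 4 were lower and 1 was higher (11.8%). The part of the makeup of ECs, given above, in the values of all ECs was not tested. In all ECs *Gucy1a1*, a subunit of the nitric oxide receptor guanylate cyclase, was higher (13.6 and 18.1 against 7.43 and 7.63 CPM, 1.17 ± 0.202, adjusted p = 0.00225). Among the peptidases that handle endothelins, *Kel* was lower on 7 against 40 counts (−2.34 ± 0.684, adjusted p = 0.0273, but 0.0937 with DESeq2, −1.44 with adjusted p = 0.104 without Lats2iECKO replicate 2 and −4.18 without Lats2iECKO replicate 1), with 28.9 to 54.9 CPM in empty droplets. *Mme*, which degrades endothelin, was at 4.23 and 5.22 against 7.59 and 10.2 CPM (−0.81 ± 0.263, adjusted p = 0.0413). That call was lost in 5 alternatives: without Lats2iECKO replicate 1 (adjusted p = 0.110) or control replicate 2 (0.203), with DESeq2 (0.255), with free RNA subtracted (0.161) and with a wider gate margin (−0.42, 0.275). Empty droplets held 26.6 and 29.96 CPM of *Mme* in mutant and 65.1 and 60.5 CPM in control libraries.

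In mural cells 38 of the 44 were tested, 10 higher and 14 lower (median log2 fold change −0.09, against −0.01 over all genes tested, of which 15.7% were higher and 14.2% lower). Contractile cells were 27.8 and 28.8% of mutant mural cells and 64.3 and 66.7% of control mural cells, and the part of this makeup in the mural values below was not tested. Of 6 contraction genes 4 were lower and *Rhoa* was higher. Within contractile cells 1 of the 6 was lower and 0 were higher (median log2 fold change −0.12, with 6.14% of all genes called in either direction), and within pericytes 3 were lower and 0 were higher (−0.54, with 18.8% of all genes called). The myosin kinase *Mylk* was at 625 and 689 against 1571 and 1554 CPM (−1.20 ± 0.0711, adjusted p = 3.85e-09), and *Ppp1r12a*, the targeting subunit of myosin phosphatase, at 704 and 716 against 1572 and 1561 CPM (−1.09 ± 0.0663, adjusted p = 4.86e-09). All 4 tested genes of the nitric oxide arm were lower, *Gucy1a1* by the most (−1.09, adjusted p = 2.75e-08). Within contractile cells edgeR called 0 of these 4 (median −0.06, with 1, *Gucy1a1*, at an unadjusted p of 0.0323), where 6.14% of all genes were called, and within pericytes all 4 were lower (−1.30), where 18.8% were. *Plcb1*, a phospholipase downstream of Gq, was at 113 and 102 against 261 and 250 CPM (−1.20 ± 0.0958, adjusted p = 1.03e-07).

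*Mmp2*, a matrix protease that can cleave big endothelin, was at 47.9 and 43.4 against 7.44 and 8.08 CPM in mural cells (2.59 ± 0.217, adjusted p = 1.76e-07). *Mme* (5.88 and 4.18 against 9.16 and 17.9 CPM, −1.38 ± 0.371, adjusted p = 0.0101) and *Grk3* (3.82 and 2.09 against 9.73 and 6.35 CPM, −1.40 ± 0.443, adjusted p = 0.0253) were lower on few counts. The *Mme* call was lost without control replicate 2 (−0.82, adjusted p = 0.218), with DESeq2 (0.117), with a wider gate margin (0.0923) and with classes by whole profile (−0.61, 0.198). The *Grk3* call was lost without Lats2iECKO replicate 2 (0.157) or control replicate 1 (0.178) and with DESeq2 (0.266). The summed mural markers of these classes are given above with *Ednra*.

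Genes whose pattern was most like that of an endothelin gene were ranked by Pearson's r of log2(CPM + 1) among 11972 genes, over 72 points that are cell types and EC and mural subtypes in 4 libraries and so share libraries and, for subtypes, cells. For *Edn1* they were *Chrnb1* (0.901), *Tmem252* (0.901), *Gm38197* (0.900), *Gm14207* (0.895) and *Sox7* (0.890). For *Ece1* they were *Acvrl1* (0.935), *Bmpr2* (0.910), *Pakap* (0.904), *Lima1* (0.898) and *Tmem204* (0.894). For *Ednra* they were *C1s1* (0.887), *Ebf2* (0.885), *4933431K23Rik* (0.865), *Nrip2* (0.861) and *Susd2* (0.857), and for *Ednrb* *Pdgfb* (0.842), *Efr3b* (0.837), *Tcim* (0.832), *Mmp15* (0.820) and *Sipa1l2* (0.819). *Edn3* stayed under 20 CPM in the classes used and was not ranked.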

How the data were processed

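Per the labels and the study's methods, 10x Chromium 3′ libraries were trimmed with cutadapt 3.5 and aligned with STARsolo 2.7.10a to GRCm39 with exons and introns counted. The authors deposited matrices of expected counts (estimated counts of UMIs), in which shared reads were split by expectation maximization, so that 9.09 to 9.95% of entries were not whole, and these were summed before rounding. Reads of overlapping genes could thus be divided between them.

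From the deposited counts, barcodes with at least 1000 UMIs, 800 genes and a complexity of 0.8, and at most 15% mitochondrial and 5% hemoglobin counts, were kept. A barcode was given to a type when its mean marker z-score (capped at 5) was at least 0.5 and 0.3 above the next type with at least 3 markers detected, and to a subtype with a margin of 0.25 and 2 markers. No doublet caller was run. The margin left out only barcodes whose highest type score led the next by less than 0.3, so others that scored for more than 1 type could remain. Counts were summed per library and class. Genes with at least 40 counts over the 4 libraries were tested with edgeR 4.0.16 (quasi-likelihood, TMM, Benjamini-Hochberg over all genes of the class, threshold 0.05, at least 10 cells per library) in R 4.3.3, and with DESeq2 1.42.0 as an alternative. Genotype effects were compared between subtypes, and control levels between classes, in fits over all classes concerned with the library as a block. SEs were derived from each fitted log2 value and the F statistic of its test, and can be unreliable where that value is near 0. Log2 levels used a pseudocount of 1 CPM. Free RNA was estimated from droplets with at least 10 and under 100 UMIs by their hemoglobin share. Intervals are 95% exact and, like the floor of 3 counts for a value of 0, cover counting error only. An exact permutation test of 2 against 2 libraries cannot go below a two-sided p of 0.333, so none is given. On simulated data, 59% of 2-fold and 98% of 4-fold changes were recovered over 14277 genes in ECs, 48% and 96% over 11903 genes in mural cells, and 33% and 90% over 8523 genes in tipECs. The simulation took mean levels and depths from the data but gave every gene the same assumed spread, with no further differences between libraries. These shares are therefore not the power of the tests on the real data.

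The genes, marker lists and pathway list were chosen with earlier results of these data known. Named pathway genes were, for ECs and mural cells, the 6 called genes with the largest absolute log2 fold change, and other pathway genes the text names were chosen after their values were seen. Similar genes were the 5 with the highest Pearson r, among genes with at least 20 CPM in 1 class. Alternatives were another scaling, DESeq2, other filters on genes and barcodes, a wider gate margin, classes by whole profile, free RNA subtracted, each library left out, a replicate block and, added after seeing the data, EC subtypes compared without bmECs.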

Additional observations from a re-analysis of the deposited data

Results flagged for a closer look

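The genotype effect on *Edn1* differed between an EC subtype and the mean of the other 4 by the edgeR interaction test. The difference in log2 fold change was −3.76 in alECs (adjusted p = 6.91e-08) and −2.19 in aECs (adjusted p = 1.22e-04). Without bmECs in the comparison these were −2.87 (adjusted p = 1.41e-06) and −1.17 (adjusted p = 0.0108), and the aEC call was then lost with any 1 library left out. Both comparisons also hold tipECs and mpECs, whose control *Edn1* counts were few, and are read with that limit. The fitted value for bmECs was 4.29, which rests on 1 control count and is not read as a test.

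The genotype effect on *Ednra* also differed between the mural subtypes. Its log2 fold change was lower in pericytes than in contractile cells by 1.01 (difference −1.01, adjusted p = 0.00157). Whether the pericyte gate holds the same kind of cell in both genotypes was not tested. For *Ednrb* the fitted difference was −4.09, or −1.64 without control replicate 2. It rests on 3 control counts in contractile cells and is not read as a test. The comparison between mural subtypes was added after seeing the data.

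In empty droplets, which served only to estimate free RNA, *Edn1* stood at a mean of 33.2 CPM ± 6.24 (SD, n = 2) in the Lats2iECKO libraries, above the 5.63 CPM ± 1.74 of the control libraries.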

How the results depend on the processing

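Of 906 alternatives over 111 results, 798 kept the direction and the side of the threshold (for values and counts, stayed within the set range), and 46 results did so under every alternative run. The cause of the changes below was not tested. *Ednrb* in ECs, not called at 0.23, was called with no filter (0.24, adjusted p = 0.0332), the filter of 20% of cells (0.22, 0.0496) and profile classes (0.27, 0.0401), and ranged from 0.090 to 0.37 with 1 library left out. *Ece1* in mural cells lost its call with DESeq2 (0.49, 0.0754). DESeq2 called 2738 genes in ECs (edgeR 4925) and 1712 in mural cells (3561), 593 in aECs (1425), 364 in mpECs (557), 110 in alECs (171), 514 in tipECs (1004), 204 in contractile cells (556), 795 in pericytes (1771), 1172 in dpMSCs (2789), 911 in mpMSCs (2050), 357 in OB (754), 4047 in CHO (7030) and 54 in fibroblasts (32, or 1200 with profile classes). With bmECs left out of the comparison, a choice made after seeing the data, the *Edn1* difference of tipECs became called (2.75, adjusted p = 1.18e-04, from 1.55). That difference rests on few control counts of tipECs. With 1 library left out, the *Edn1* difference of bmECs, on 1 control count, ranged from 3.30 to 6.35 and that of mpECs from −0.56 to 0.69. Without thinning, the share of ECs with an *Edn1* UMI was 43.7% in the mutants and 14.9% in the controls.

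Values whose direction turned were not called with the marker gates and edgeR, although *Ece1* in dpMSCs minus fibroblasts was called after turning. With profile classes they were *Ece1* in tipECs (−0.023), *Ednra* in CHO (−0.15) and fibroblasts (−0.19), the *Ece1* difference of bmECs (0.042), and the control levels of *Ednrb* in mpECs minus tipECs (0.64), *Ece1* in dpMSCs minus fibroblasts (0.61, adjusted p = 2.49e-07) and *Ednra* in mpMSCs minus fibroblasts (−0.17). With the wider margin they were *Ednrb* in mpECs (−0.25), *Edn1* in alECs (−0.10) and *Ece1* in pericytes (−0.028), with no filter *Ece1* in alECs (0.030), and with bmECs left out the *Ednrb* difference of mpECs (−0.49). With 1 library left out, ranges crossed 0 for *Ednra* in ECs (−0.54 to 0.77) and fibroblasts (−0.31 to 0.53), *Edn1* in alECs (−0.29 to 0.48), *Ece1* in alECs (−0.12 to 0.0075), contractile cells (−0.17 to 0.057), mpMSCs (−0.014 to 0.27) and CHO (−0.10 to 0.040), the differences of *Ednrb* in mpECs (−0.20 to 0.37), *Ece1* in alECs (−0.0090 to 0.078) and *Ece1* in pericytes (−0.0060 to 0.49), and the control levels of *Ece1* in aECs minus alECs (−0.15 to 0.024) and mpECs minus tipECs (−0.20 to 0.082).

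The labels share replicate numbers but do not say that they pair libraries, and deviations of same-numbered libraries correlated at −0.277 to 0.401 across classes. With a replicate block 48 of 49 results kept their call, *Edn1* in ECs at 2.21, *Ednrb* in ECs at 0.24, *Ednra* in mural cells at −1.06 and *Ednrb* in mural cells at 2.68, and *Ednrb* in pericytes became called (1.30, adjusted p = 0.0405). At this depth *Edn1* and *Ednrb* in bmECs, and *Edn3* in every class, fell below the 40 counts needed for a test.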
